A study of Mus musculus with 2 samples.

Results

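The 33 genes described here encode proteins that copy DNA and divide the cell, and their transcripts were followed through NK, erythroid and other cells of a spleen preparation. They were found by gene symbol, all 33 among the 32285 genes of the matrix. Of them, 14 belong to the G1/S transition and DNA replication (Ccne1, Ccne2, Mcm2, Mcm3, Mcm4, Mcm5, Mcm6, Mcm7, Pcna, Rrm1, Rrm2, Tyms, Pclaf and Hist1h1b) and 16 to G2 and mitosis (Mki67, Top2a, Birc5, Ccna2, Ccnb1, Ccnb2, Cdk1, Cenpf, Ube2c, Nusap1, Aurka, Aurkb, Bub1, Plk1, Cenpe and Tpx2). The remaining 3, Tubb5, Stmn1 and Hmgb2, are called broadly expressed, since cells that do not divide also hold them. Transcripts of some G1/S genes were widespread too (given further on).

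A cell that enters the cycle makes E-type cyclins, the MCM helicase that licenses replication origins, the clamp PCNA and the enzymes that supply nucleotides. Transcripts of the mitotic kinases, B-type cyclins and kinetochore proteins peak in G2 and mitosis. Natural killer (NK) cells, lymphocytes that kill infected or transformed cells, divide mostly as immature cells, marked by CD27, and less once mature, marked by CD11b (the product of Itgam). Red cell precursors, which mouse spleen can hold, divide several times before they fill with haemoglobin.

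The study enriched NK cells from the spleens of wild-type mice by lysing red cells and removing T cells, B cells, dendritic cells, granulocytes, macrophages and erythroid cells with magnetic beads, and measured transcripts of single cells on the 10x Genomics 3′ platform. Cells of different mice were combined after lipid tagging. Of the 2 samples, sample 1 was analysed and sample 2 was not analysed here, and every cell compared below is wild-type and untreated. The labels do not say which mouse carries which tag, and they give neither age nor sex. The 3 tags therefore served as replicates of 1 library, and p-values set differences against the variation between tags, which may be technical.

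After filtering, 11696 cells with a single tag remained, 3590, 4213 and 3893 in tags 1, 2 and 3, with medians of 4026.5, 4433 and 4125 UMIs (unique molecular identifiers, 1 for each captured transcript). Cells were clustered without the 33 genes, without 105 other cell cycle genes and without histone genes, and clusters were named from marker lists. The classes described were 125 erythroid-like, 175 progenitor-like, 629 ILC1-like (innate lymphoid cells related to NK cells), 557 conventional dendritic cell-like, 713 B cell-like, 31 plasma cell-like and 7790 NK-like cells. Erythroid-like cells carried 8 erythroid markers at a summed 5893 to 11200.0 CPM (counts per 1e+06 UMIs of a class and tag) over the tags, against 186 to 208 CPM in NK-like cells without cycle transcripts (defined further on, with the thinning of cells that these marker sums share). The 10 NK markers summed to 177 to 278 CPM in erythroid-like cells, with Klrd1 at 0, against 21479.8 to 23213 CPM in those NK-like cells. In tag 3, which held 83 of the 125 erythroid-like cells, they also carried plasma cell transcripts, 2660 CPM summed over 6 markers with Sdc1 and Tnfrsf17 at 0, where tags 1 and 2 had 69.6 and 0 CPM. B cell markers there summed to 1766 CPM, with Cd79b, Ebf1 and Pax5 at 0, where tags 1 and 2 had 17.4 and 26.7 CPM.

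The 33 genes were highest in erythroid-like cells, and they were followed by progenitor-like cells for 30 of them. Each gene's mean over tags in erythroid-like cells exceeded its mean in the other 5 classes with all tags filled, and B cell-like cells were lowest for 18 genes. Summed over the 16 G2/M genes, the level was 1210.1, 1533 and 1746 CPM in tags 1, 2 and 3 of erythroid-like cells, against 261, 240.0 and 242 CPM in NK-like cells. The 14 G1/S genes summed to 1964, 1978 and 2437 CPM in erythroid-like cells, against 492, 498 and 502 CPM in NK-like cells. The groups did not overlap in either sum. In such sums over cells, fewer cells that hold a transcript and less of it per cell cannot be told apart.

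**Figure D1:**
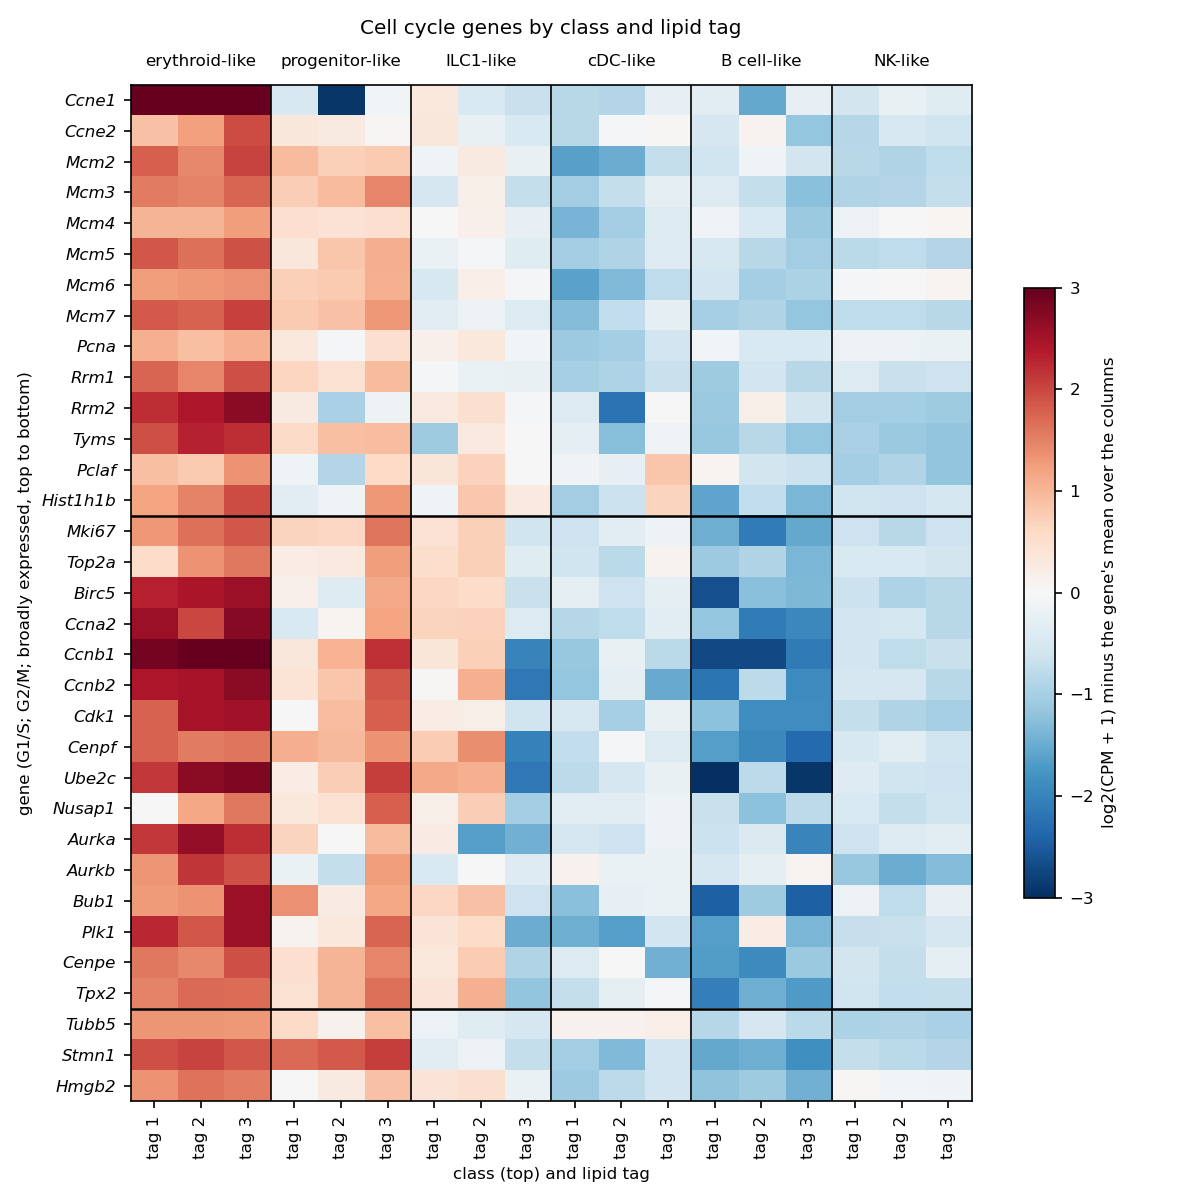
Levels of the 33 genes by class (6 blocks of columns) and lipid tag (columns), as log2(CPM + 1) minus each gene's mean, with the colour scale ending at 3 on both sides. The erythroid-like columns are the reddest, and erythroid-like cells were highest for 33 of 33 genes.

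The first comparison set erythroid-like against NK-like cells. All 33 genes were tested and all 33 rose in erythroid-like cells at an adjusted p under 0.05 (edgeR's quasi-likelihood test on counts summed per tag and class, tag as a block, Benjamini-Hochberg adjustment over 11082 genes). Their median log2 fold change was 3.07, against -0.19 over all genes tested. These cell types differed in much of the transcriptome, with 34.5% of all genes called higher and 38.8% called lower in erythroid-like cells. For all 33 genes the 3 erythroid-like tags lay above the 3 NK-like tags, as they did for 28% of all genes tested. The comparisons of other classes below share these NK-like cells.

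Among the G1/S genes, the cyclin E1 gene Ccne1, whose product activates CDK2 for entry into S phase, stood at 64.2, 60.9 and 73.5 CPM in tags 1, 2 and 3 of erythroid-like cells, against 4.12, 5.41 and 4.80 CPM in NK-like cells. This was a log2 fold change of 4.15 ± 0.24 (SE; edgeR adjusted p = 9.8e-15), above that of Ccne2, at 2.80 ± 0.28. Rrm2, the regulated subunit of ribonucleotide reductase, reached 109, 126 and 154 CPM in erythroid-like cells, against 10.5, 10.6 and 10.4 CPM in NK-like cells (log2 fold change 4.03 ± 0.23, SE). Tyms, the thymidylate synthase that makes dTMP, reached 116, 151 and 141 CPM in erythroid-like cells, against 14.6, 13.1 and 12.6 CPM in NK-like cells.

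The MCM helicase genes rose by unequal amounts. Mcm2, Mcm3, Mcm5 and Mcm7 had log2 fold changes of 3.12 ± 0.17, 2.87 ± 0.18, 3.07 ± 0.16 and 3.09 ± 0.14 (SE), while Mcm4 and Mcm6 had 1.59 ± 0.17 and 1.68 ± 0.13. Mcm5 had 130.2, 113 and 136 CPM in erythroid-like cells, against 19.8, 20.5 and 18.8 CPM in NK-like cells. Mcm6 had 191, 198 and 205 CPM in erythroid-like cells, against 76.0, 80 and 83.4 CPM in NK-like cells. The differences between genes in fold change were not tested. The clamp gene Pcna stood at 253, 229 and 257 CPM in erythroid-like cells, against 108, 108 and 106 CPM in NK-like cells, the smallest log2 fold change of the 33 (1.58 ± 0.14, SE). Pclaf, a PCNA-binding factor, had 119.8, 111 and 165 CPM in erythroid-like cells and 31.1, 33.5 and 27.7 CPM in NK-like cells. The linker histone gene Hist1h1b had 279.5, 343 and 479.6 CPM in erythroid-like cells and 80.9, 78.9 and 85.1 CPM in NK-like cells.

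Among the G2/M genes, Ccnb1, which encodes the cyclin that drives mitotic entry with CDK1, had the largest fold change of the 33. It stood at 46.9, 55.4 and 54.2 CPM in erythroid-like cells, against 3.35, 2.81 and 3.07 CPM in NK-like cells (log2 fold change 4.45 ± 0.32, SE; edgeR adjusted p = 1.5e-12). Cdk1 itself had 71.2, 116 and 121 CPM in erythroid-like cells and 12.0, 10.3 and 9.60 CPM in NK-like cells. The survivin gene Birc5, part of the chromosomal passenger complex, had 188, 203 and 224 CPM in erythroid-like cells and 22.9, 18.5 and 19.9 CPM in NK-like cells. Tag 1 was the lowest erythroid-like tag for all 3 genes and still lay above every NK-like tag. Mki67, the proliferation antigen that coats mitotic chromosomes, had 163, 209 and 238 CPM in erythroid-like cells and 41.9, 36.4 and 41.9 CPM in NK-like cells. Top2a, the topoisomerase that untangles sister chromatids, had 137, 238 and 284 CPM in erythroid-like cells and 67.4, 67.9 and 63.1 CPM in NK-like cells, and its log2 fold change of 2.13 ± 0.24 was the smallest of the G2/M genes.

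The 3 broadly expressed genes also rose. Stmn1, whose product destabilises microtubules, had 1068, 1143 and 1019 CPM in erythroid-like cells and 170.1, 160.0 and 151 CPM in NK-like cells. The tubulin gene Tubb5 had 839, 848 and 825 CPM in erythroid-like cells and 174, 181 and 172 CPM in NK-like cells. The chromatin protein gene Hmgb2 had 1835, 2231 and 2082 CPM in erythroid-like cells and 734, 679.7 and 664 CPM in NK-like cells. All 33 genes stayed called higher with each tag left out in turn, tag 3 with its plasma cell and B cell transcripts included.

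The promoters of the genes were searched for short motifs, and the counts below are given with no test of a difference between the sets. E2F factors act on genes of the G1/S transition and were searched by the letters TTCCCGC, by TTGGCGC, by the variant TTCGCGC and also by TTGCCGC, and the CHR element, known from genes of G2 and mitosis, was searched as TTTGAA and TTCGAA. Promoter windows from 250 bases before to 50 after each gene's start (RefSeq, GRCm38.p6) were found for 26 of the 33 genes, all but Hist1h1b, Tpx2, Aurkb, Ccna2, Ccne2, Stmn1 and Mcm4. On either strand, an E2F motif was found in 7 of 11 G1/S promoters and 3 of 13 G2/M promoters, against 9.69% of 27025 promoters. A CHR motif was found in 2 of 11 G1/S promoters and 9 of 13 G2/M promoters, against 19.4% of all promoters. CCAAT, on either strand, was found in 22 of the 26, against 37.9% of all. CCAAT read on the other strand can share its TTGG with the E2F motif TTGGCGC. These shares are descriptions, not matched for base composition, and a match is no bound site.

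The 250 bases before the start of 2 MCM genes are given 5′ to 3′ on the gene's strand, as examples of a G1/S gene with a larger (Mcm5) and a smaller (Mcm6) fold change in erythroid-like cells, with E2F motifs in capitals. Mcm5 has 3 such motifs in this stretch and Mcm6 has 4, and overlapping motifs run together.
Mcm5, chr8:75109259-75109508, plus strand: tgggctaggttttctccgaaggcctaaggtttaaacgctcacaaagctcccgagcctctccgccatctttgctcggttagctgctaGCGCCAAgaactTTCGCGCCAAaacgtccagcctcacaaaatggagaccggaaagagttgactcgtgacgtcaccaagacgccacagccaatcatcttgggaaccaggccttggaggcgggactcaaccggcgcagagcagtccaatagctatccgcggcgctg
Mcm6, chr1:128359706-128359955, minus strand: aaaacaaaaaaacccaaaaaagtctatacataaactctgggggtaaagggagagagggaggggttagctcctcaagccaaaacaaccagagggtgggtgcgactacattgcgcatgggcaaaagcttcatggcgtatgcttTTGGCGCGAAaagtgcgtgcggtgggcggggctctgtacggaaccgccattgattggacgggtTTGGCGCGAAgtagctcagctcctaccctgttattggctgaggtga

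The same stretches of 4 G2/M genes follow, with CHR motifs in capitals: the mitotic kinase gene Cdk1, the B-type cyclin gene Ccnb2, and Mki67 and Top2a, whose counts were correlated over NK-like cells with cycle transcripts (given further on). Cdk1 has 2 CHR motifs, Ccnb2 has 1, Mki67 has 2 and Top2a has 4.
Cdk1, chr10:69352913-69353162, minus strand: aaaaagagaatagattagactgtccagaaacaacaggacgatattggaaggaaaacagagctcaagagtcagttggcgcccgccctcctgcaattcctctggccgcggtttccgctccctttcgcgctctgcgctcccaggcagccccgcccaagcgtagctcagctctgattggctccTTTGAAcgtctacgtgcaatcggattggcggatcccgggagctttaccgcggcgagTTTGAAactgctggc
Ccnb2, chr9:70421555-70421804, minus strand: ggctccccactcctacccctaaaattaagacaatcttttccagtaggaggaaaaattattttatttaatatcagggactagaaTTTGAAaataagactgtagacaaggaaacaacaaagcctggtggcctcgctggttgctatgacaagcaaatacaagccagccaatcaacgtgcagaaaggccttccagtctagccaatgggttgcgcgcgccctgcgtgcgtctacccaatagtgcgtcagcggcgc
Mki67, chr7:135716380-135716629, minus strand: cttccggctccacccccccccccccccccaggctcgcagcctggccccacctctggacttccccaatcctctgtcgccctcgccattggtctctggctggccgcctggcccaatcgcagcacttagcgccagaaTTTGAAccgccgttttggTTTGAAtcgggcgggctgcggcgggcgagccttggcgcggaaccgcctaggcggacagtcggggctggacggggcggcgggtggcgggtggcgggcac
Top2a, chr11:99024190-99024439, minus strand: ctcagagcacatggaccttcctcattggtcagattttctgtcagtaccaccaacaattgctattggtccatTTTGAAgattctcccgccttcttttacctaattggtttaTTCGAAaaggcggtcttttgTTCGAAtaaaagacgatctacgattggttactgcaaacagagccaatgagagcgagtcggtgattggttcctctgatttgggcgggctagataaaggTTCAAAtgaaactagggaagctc

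In Cdk1, 1 of the CHR motifs begins 15 bases before the start and a CCAAT motif, as ATTGG, begins 48 bases before it. Ccnb2 has another CHR motif beginning 4 bases after its start, outside the stretch printed, and CCAAT motifs at 21, 54 and 87 bases before it.

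Progenitor-like cells, named from Meis1 among their leading genes with Kit, Cd34, Hlf, Mecom and Adgrg1 as the other markers, were set against NK-like cells in the same fit. Their cluster scored higher on the basophil or mast cell markers than on the progenitor markers. Of the 33 genes, 30 rose and none fell, at a median log2 fold change of 1.60, where 29.5% of all genes were called higher and 30.6% lower. All 16 G2/M genes rose, by 1.13 for Top2a to 2.40 for Ccnb1 on the log2 scale, and 11 of 14 G1/S genes did. Ccne1, Ccne2 and Rrm2 did not pass. Ccne1 stood at 4.35, 0 and 6.11 CPM in progenitor-like cells, against 4.12, 5.41 and 4.80 CPM in NK-like cells (log2 fold change -0.44 ± 0.53, SE; edgeR adjusted p = 0.49), with overlapping tags. Rrm2 had 27.5, 11 and 20.4 CPM in progenitor-like cells and 10.5, 10.6 and 10.4 CPM in NK-like cells.

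The largest fold changes in progenitor-like cells were those of Stmn1, Ccnb1 and Cdk1. Stmn1 reached 917, 1001 and 1181 CPM in progenitor-like cells, against 170.1, 160.0 and 151 CPM in NK-like cells (log2 fold change 2.64 ± 0.14, SE). Ccnb1 had 7.24, 12.3 and 28.5 CPM in progenitor-like cells and 3.35, 2.81 and 3.07 CPM in NK-like cells. Cdk1 had 20.3, 39.8 and 72.4 CPM in progenitor-like cells and 12.0, 10.3 and 9.60 CPM in NK-like cells. Tag 3 was the highest progenitor-like tag for all 3 genes. Mki67, with 104, 100.1 and 199 CPM in progenitor-like cells against 41.9, 36.4 and 41.9 CPM in NK-like cells, was also highest in tag 3, and without tag 3 22 of the 33 genes were called higher. The progenitor-like cells also held erythroid markers, 1007 to 1225 CPM summed with Alas2 at 0, and NK markers, 997 to 1564 CPM summed. The part of cells with these transcripts in the levels above was not tested.

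In ILC1-like cells 13 of the 33 genes rose against NK-like cells and none fell, where 8.9% of all genes were called higher and 9.75% lower. The median log2 fold change was 0.66. The ILC1-like cluster, led by Il7r, scored higher on the NK markers than on the ILC1 markers. Pclaf, Rrm2 and Aurkb had the largest fold changes. Pclaf had 82.6, 104 and 64.6 CPM in ILC1-like cells, against 31.1, 33.5 and 27.7 CPM in NK-like cells (log2 fold change 1.35 ± 0.24, SE; edgeR adjusted p = 1.6e-04). Rrm2 had 28.2, 32.2 and 22.0 CPM in ILC1-like cells and 10.5, 10.6 and 10.4 CPM in NK-like cells. Aurkb, the Aurora kinase of the passenger complex, had 8.37, 12.0 and 8.78 CPM in ILC1-like cells and 4.81, 3.56 and 4.22 CPM in NK-like cells. The other called genes were Tyms, Hist1h1b, Mcm2, Ccna2, Birc5, Tpx2, Cenpf, Mki67, Top2a and Tubb5.

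The ILC1-like result depended on the tag and on deep cells. Mki67 stood at 87.8, 107 and 42.7 CPM in tags 1, 2 and 3 of ILC1-like cells, against 41.9, 36.4 and 41.9 CPM in NK-like cells, and the 16 G2/M genes together at 554, 668 and 216 CPM, against 261, 240.0 and 242 CPM in NK-like cells. The summed G2/M level of tag 3 lay below all 3 NK-like tags. Without tag 1, 2 or 3, 8, 3 or 23 genes were called higher. Without the 5% of cells with most UMIs, 2 genes were called higher and 2 lower. ILC1-like cells held NK markers at a summed 7443 to 8452 CPM, against 21479.8 to 23213 CPM in NK-like cells without cycle transcripts. Erythroid markers summed to 334 to 482 CPM in ILC1-like cells, with Klf1 and Epor at 0, against 186 to 208 CPM, and progenitor markers to 174 to 197 CPM, against 38.7 to 59.7 CPM. The part of these transcripts in the result was not tested.

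**Figure D2:**
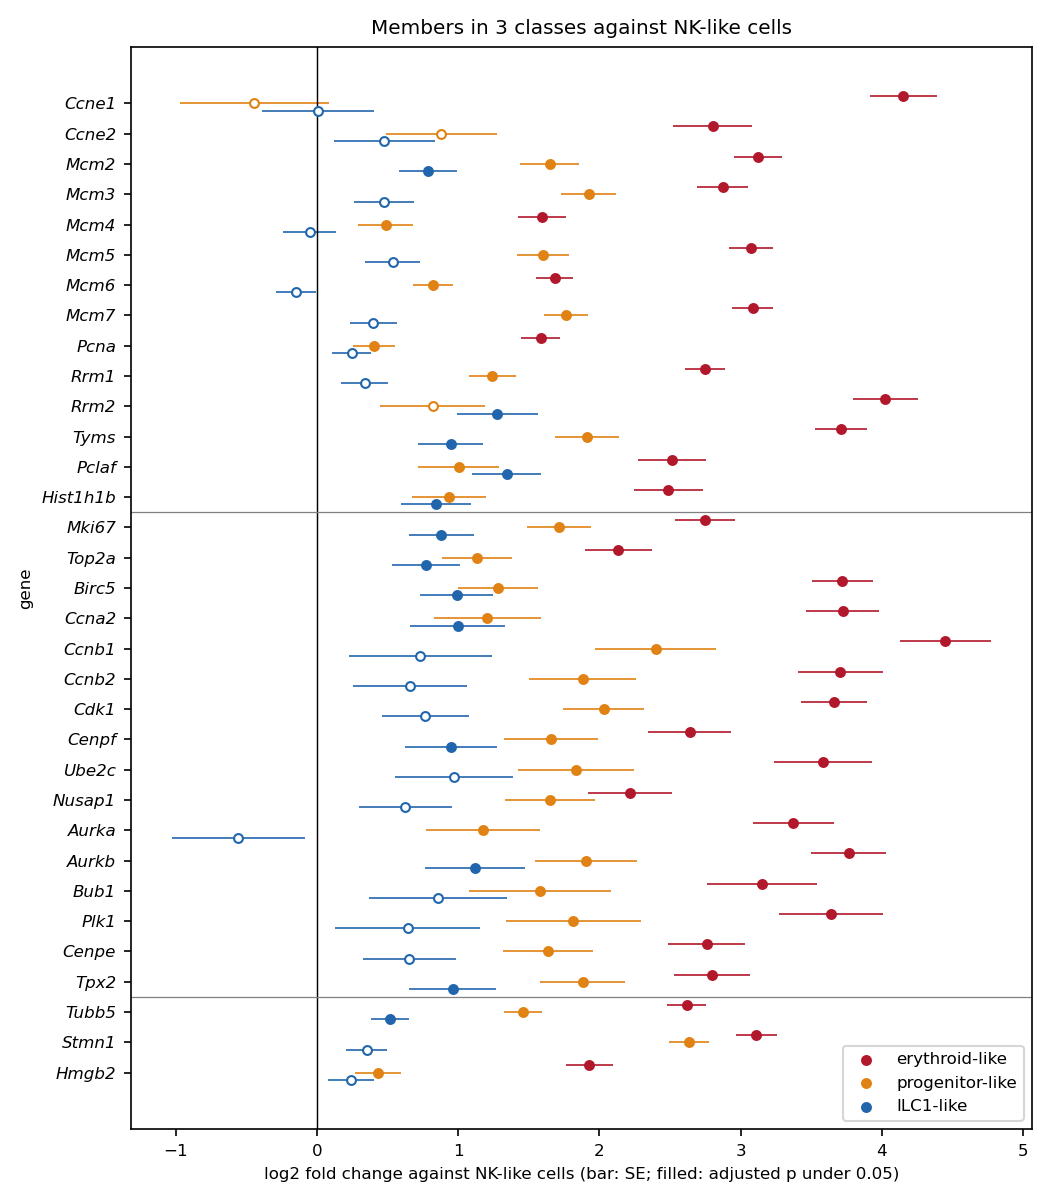
Log2 fold change of each of the 33 genes in erythroid-like, progenitor-like and ILC1-like cells against NK-like cells (points, with the SE as a bar; filled where the adjusted p was under 0.05). Erythroid-like points lie between 1.58 and 4.45, and progenitor-like points between -0.44 and 2.64.

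In B cell-like cells 2 genes, Pclaf and Aurkb, rose and 8 fell against NK-like cells, where 18.1% of all genes were called higher and 22.8% lower. The 8 were Mcm6, Mki67, Cenpf, Ube2c, Ccnb1, Bub1, Stmn1 and Hmgb2. The share of the tested cell cycle genes that fell was thus near the 22.8% of all genes. The share that rose was below the 18.1% of all genes. Bub1, a kinase of the spindle checkpoint, and Ccnb1 had the largest fold changes, each with 1 UMI in all B cell-like cells. Mki67 had 23.1, 14.5 and 22.0 CPM in B cell-like cells, against 41.9, 36.4 and 41.9 CPM in NK-like cells. Without the deepest cells its log2 fold change was 0.09. Hmgb2 had 311, 343 and 264 CPM in B cell-like cells, against 734, 679.7 and 664 CPM in NK-like cells, and the tags did not overlap.

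In conventional dendritic cell-like cells 7 genes rose and 4 fell against NK-like cells, where 29.2% of all genes were called higher and 30.5% lower. The share of the 33 genes called was thus below the background in both directions. Aurkb, Pclaf and Tubb5 had the largest fold changes. Tubb5 had 369.9, 369 and 389 CPM in conventional dendritic cell-like cells, against 174, 181 and 172 CPM in NK-like cells. Pclaf had 59.7, 53.6 and 115 CPM in conventional dendritic cell-like cells and 31.1, 33.5 and 27.7 CPM in NK-like cells. Pcna, Mcm4, Mcm6 and Hmgb2 fell, Mcm6 to 25.3, 31.2 and 46.2 CPM in conventional dendritic cell-like cells, against 76.0, 80 and 83.4 CPM in NK-like cells. Without the deepest cells 23 genes were called higher. With RLE in place of TMM scaling the median of all genes was 0.05 and not -0.07 on the log2 scale, and 14 genes were called higher.

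The plasma cell-like cells were too few for a test, with 10, 2 and 19 cells in the tags. Pooled, Mki67 had 5 UMIs, or 9.44 CPM (95% exact Poisson interval 3.06 to 22.0), and Pclaf had 0 UMIs (interval 0 to 6.96 CPM). Ccne1 had 11 UMIs, or 20.8 CPM (10.4 to 37.1), against 4.83 CPM (4.14 to 5.59) in pooled NK-like cells. These intervals cover counting error only.

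Cells were next classed one at a time. Because a deep cell shows more transcripts, every cell was thinned at random to 2500 UMIs and shallower cells were left out (10 of the erythroid-like and 692 of the NK-like cells). A cell was said to hold cycle transcripts with at least 3 UMIs summed over the 14 G1/S genes or at least 3 over the 16 G2/M genes. Of 115 erythroid-like cells, 103 held cycle transcripts, 89.6% (95% exact binomial interval 82.5 to 94.5%), against 552 of 7098 NK-like cells, 7.78% (7.16 to 8.42%). Per tag the shares were 87.0, 80 and 92.2% in erythroid-like cells and 7.53, 7.50 and 8.39% in NK-like cells. The tag means differed by 78.6 percentage points, and the exact two-sided permutation test over tags gave p = 0.1, the smallest that 3 against 3 tags allow (adjusted p = 0.2 over 8 comparisons). Before thinning, the median depth of these cells was 34720 UMIs in the erythroid-like and 4163 UMIs in the NK-like class.

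Progenitor-like cells lay between, with 67 of 175 cells or 38.3% (25, 40.7 and 47.7% in tags 1, 2 and 3), against 7.53, 7.50 and 8.39% in NK-like cells, with no overlap and again an exact permutation p = 0.1. ILC1-like cells held 9.22%, conventional dendritic cell-like cells 8.03% and B cell-like cells 4.75%. The median depth of B cell-like cells, 4238 UMIs, was close to that of NK-like cells. What share of each class passed through free RNA or chance was not measured. Of the 29 plasma cell-like cells deep enough, 1 held cycle transcripts.

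The classes also differed in the kind of transcript. In erythroid-like cells 34 of 103 passed on G1/S genes alone, 54 on both sets and 15 on G2/M genes alone. In NK-like cells 458 of 552 passed on G1/S genes alone, 78 on both and 16 on G2/M genes alone. By the 16 G2/M genes alone, 60% of erythroid-like cells passed (56.5, 53.3 and 62.3% in the tags), 14.3% of progenitor-like cells (8.93, 14.8 and 18.5%), 3.40% of ILC1-like cells (4.64, 4.35 and 1.92%) and 1.32% of NK-like cells (1.18, 1.30 and 1.51%). B cell-like cells held 1.42% by that count (1.69, 1.87 and 1.15%), and the NK-like share did not exceed theirs. Of the NK-like cells, 331 had exactly 3 UMIs of the larger of the 2 sums, and 78 (1.10%) had 10 or more. Of 632 B cell-like cells, 4 (0.633%) had 10 or more. The summed level of the G2/M genes over all cells was 131, 160 and 131 CPM in B cell-like cells, below the 261, 240.0 and 242 CPM in NK-like cells.

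**Figure D3:**
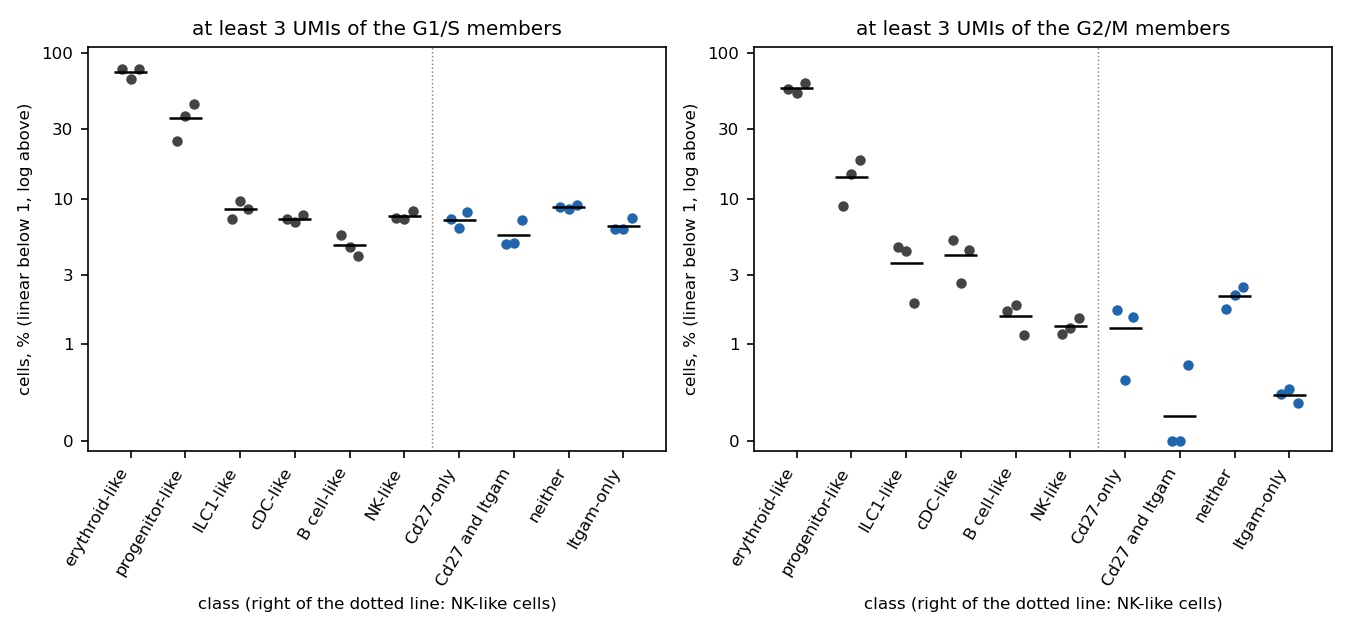
Share of cells with at least 3 UMIs of the G1/S genes (left) and of the G2/M genes (right) after thinning to 2500 UMIs, for 6 classes and, right of the dotted line, for the NK-like cells split by Cd27 and Itgam. Points are lipid tags, bars are their means, and the axis is linear below 1% and logarithmic above. By the G2/M genes, erythroid-like tags lie between 53.3 and 62.3% and NK-like tags between 1.18 and 1.51%.

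The genes differed in how far their UMIs gathered in the same NK-like cells. For each gene, the share of its UMIs in cells with cycle transcripts was computed after leaving that gene out of the sums. The 3 highest shares were 91.3% for Bub1 (95% exact binomial interval 72.0 to 98.9%), 89.7% for Pclaf (84.7 to 93.5%) and 84.7% for Cenpf (77.4 to 90.4%), a kinetochore protein gene. The 3 lowest were 8.96% for Mcm6 (7.43 to 10.7%), 9.91% for Pcna (8.57 to 11.4%) and 10.7% for Mcm4 (8.44 to 13.2%). Cells that passed without Mcm6, Pcna or Mcm4 made up 5.37, 4.54 and 6.33% of NK-like cells. Pcna had a UMI in 37.0% of NK-like cells with and 21.0% of those without cycle transcripts, whereas Pclaf had a UMI in 15.8 and 0.321%. The cells with cycle transcripts were somewhat deeper, with a median of 4645 UMIs, against 4141 UMIs in the rest.

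Within the G1/S set, Pclaf, Hist1h1b (67.7%) and Rrm2 (58.7%) had most of their UMIs in cells with cycle transcripts, as did Mki67 (72.9%), Birc5 (77.3%) and Top2a (62.8%) of the G2/M set. The other 11 G1/S genes had between 8.96% and 25.5% there, the highest being Tyms. Aurka, the Aurora kinase of the centrosome, had 23.2% (13 to 36.4%), the lowest of the G2/M genes. Of the broadly expressed genes, Stmn1 had 36.2%, Tubb5 20.5% and Hmgb2 18.8%. Across the 552 NK-like cells with cycle transcripts, the median Pearson correlation was 0.40 over the 120 pairs of G2/M genes and 0.01 over the 91 pairs of G1/S genes. This is a description, since the cells share a library and were chosen by sums of these counts. The highest pairs were Ube2c with Cenpf and Top2a with Mki67, both at 0.73.

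**Figure D4:**
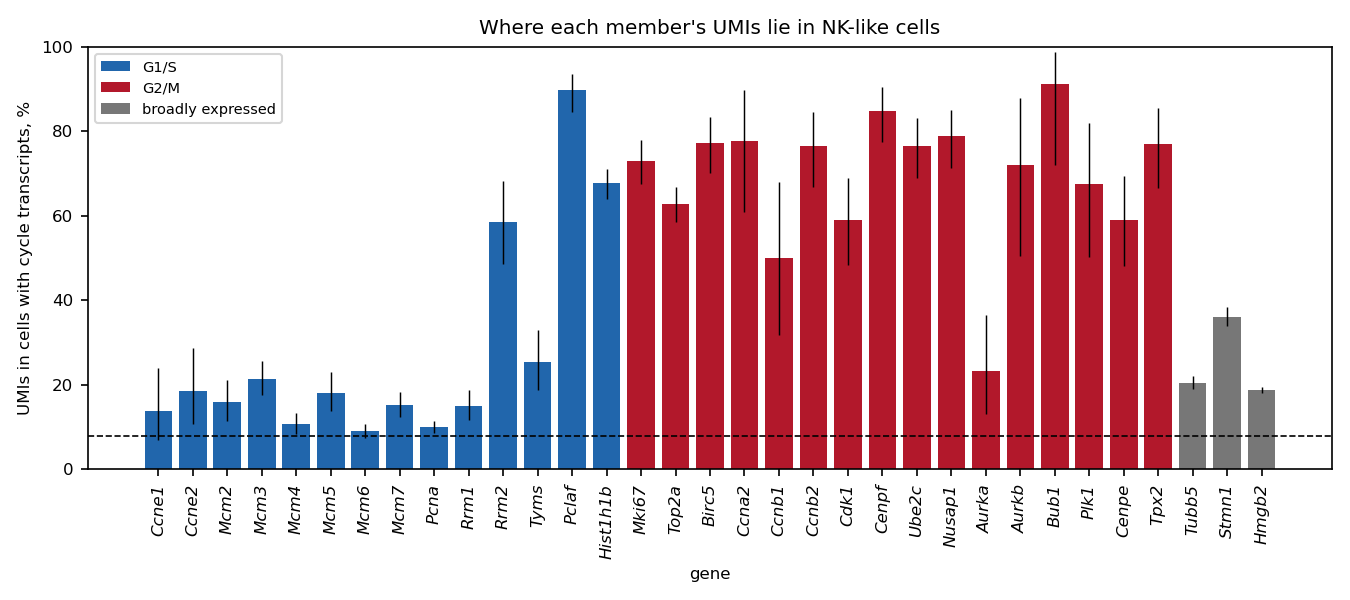
Percentage of each gene's UMIs in NK-like cells that lay in cells with cycle transcripts by the other genes (bars, with 95% exact binomial intervals; blue G1/S, red G2/M, grey broadly expressed). The dashed line marks the 7.78% of NK-like cells that held cycle transcripts with all genes counted. It is not each bar's own baseline, since leaving a gene out of the sums can lower the share of cells that pass. Pclaf, Hist1h1b and Rrm2 stand among the G2/M genes, and Mcm6, Pcna and Mcm4 are lowest.

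In NK-like cells with cycle transcripts the 8 erythroid markers summed to 188 to 279 CPM over the tags, with Epor and Gata1 at 0, against 186 to 208 CPM in NK-like cells without. Of the NK-like clusters, the one led by Hist1h1b, Top2a and Mki67, which took no part in the clustering, held 172 of the 552 cells with cycle transcripts (31.2%) and 1275 of the 7098 NK-like cells (17.96%).

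NK-like cells were then split by the transcripts that mark maturation. After thinning, 870 cells held a Cd27 and no Itgam UMI, 433 held both, 3289 held neither and 2506 held an Itgam and no Cd27 UMI. Since 1 UMI decides the class, a cell without a UMI may still express the gene. Between Cd27-only and Itgam-only cells 11 of the 33 genes rose and none fell (edgeR as above, over 10416 genes), where 6.99% of all genes were called higher and 4.88% lower. The median log2 fold change was 0.57 over the 33 genes and 0.00 over all genes, and 31 of the 33 were above 0. Summed markers of some other cell types were also higher in Cd27-only cells. Erythroid markers summed to 228 to 255 CPM in Cd27-only cells, with Gata1 at 0, against 170.2 to 192 CPM in Itgam-only cells. Progenitor markers summed to 51.4 to 69.0 CPM in Cd27-only cells, with Hlf and Mecom at 0, against 27.0 to 47.5 CPM in Itgam-only cells, and B cell markers to 113 to 118 CPM, against 78.6 to 83.0 CPM. None of these sums overlapped between the classes. They rested on part of the lists, since 4 of 8 erythroid, 3 of 6 progenitor and 5 of 7 B cell markers had at least 3 UMIs in Cd27-only cells. Whether other cells were mixed in was not tested.

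Of these 11, 8 were among the 16 G2/M genes, 1 among the 14 G1/S genes (Pclaf) and 2 among the broadly expressed genes (Tubb5 and Hmgb2). Cenpf had the largest fold change, with 19.5, 21.5 and 21.2 CPM in Cd27-only cells, against 12.1, 7.04 and 4.66 CPM in Itgam-only cells (log2 fold change 1.43 ± 0.24, SE; edgeR adjusted p = 6.2e-06). Top2a had 71.7, 44.5 and 69.3 CPM in Cd27-only cells, against 34.1, 43.2 and 25.8 CPM in Itgam-only cells (log2 fold change 0.85 ± 0.14, SE; edgeR adjusted p = 3.6e-06). Mki67 had 34.6, 24.1 and 35.3 CPM in Cd27-only cells and 22.8, 22.3 and 15.9 CPM in Itgam-only cells. The tags of the classes did not overlap for these 3 genes, and tag 2 differed least for Top2a and Mki67. Tpx2, a spindle assembly factor, had 12.8, 9.73 and 8.48 CPM in Cd27-only cells and 4.79, 4.46 and 4.35 CPM in Itgam-only cells.

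Pclaf had 37.7, 10.2 and 24 CPM in Cd27-only cells, against 5.64, 13.1 and 7.77 CPM in Itgam-only cells, so that tag 2 went the other way. Birc5 had 24.3, 13.3 and 18.4 CPM in Cd27-only cells and 14.7, 10.3 and 7.46 CPM in Itgam-only cells. Cdk1 had 13.4, 9.21 and 12.7 CPM in Cd27-only cells and 8.74, 7.50 and 4.35 CPM in Itgam-only cells. These were called, as were Ube2c, Ccnb2 and Tubb5 and the broadly expressed Hmgb2. Hmgb2 had 723, 591 and 666 CPM in Cd27-only cells and 621, 568 and 541 CPM in Itgam-only cells.

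The replication genes whose UMIs lay mostly outside cells with cycle transcripts did not pass. Pcna had 97.3, 92.7 and 87.6 CPM in Cd27-only cells and 95.8, 107 and 96.4 CPM in Itgam-only cells (log2 fold change -0.05 ± 0.08, SE). Mcm6 had 73.6, 79.9 and 79.2 CPM in Cd27-only cells and 69.1, 76.5 and 81.7 CPM in Itgam-only cells (0.10 ± 0.09). Mcm5, at 15.2, 20.5 and 21.2 CPM in Cd27-only cells against 13.5, 15.9 and 11.5 CPM in Itgam-only cells, had an edgeR adjusted p of 0.09. The tags overlapped for all 3. Hist1h1b ranged widely in Cd27-only cells, 83.3, 17.9 and 50.2 CPM, against 35.2, 34.9 and 45.1 CPM in Itgam-only cells, and did not pass. Tyms, Rrm2, Ccne1, Ccnb1 and Stmn1 did not pass either, with log2 fold changes from 0.25 for Stmn1 to 1.26 for Ccnb1.

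The number of genes called depended on the tag and on the gate. Without tag 1, 2 or 3 it was 6, 15 or 5, and without the tag as a block it was 4. With classes taken from unthinned counts it was 19, and with 2 UMIs required it was 3 of 25 genes tested. Without NK-like cells that held a UMI of Car1, Car2, Klf1, Cd79a, Ebf1, Kit or Cd34 it was 1 of 16 genes tested, at a median log2 fold change of -0.0028, with 97, 113 and 87 Cd27-only cells left of 290, 319 and 261 in the tags. With Car2 and Kit not used for this, a choice made after seeing the data, it was 10 of 31 genes tested, at a median of 0.46. Then 260, 276 and 230 Cd27-only cells were left in the tags, so most cells of the first removal were dropped for Car2 or Kit alone. Both removals used the UMIs before thinning, where a deep cell shows more transcripts. Cd27-only cells with cycle transcripts had a median of 6175 UMIs, against 4985 UMIs in Cd27-only cells without, and the part of depth in these counts was not tested. Cd27-only cells were deeper, with a median of 5086 UMIs, against 3819 UMIs in Itgam-only cells. In sums of the thinned cells 6 of 23 genes tested were called, all higher.

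**Figure D5:**
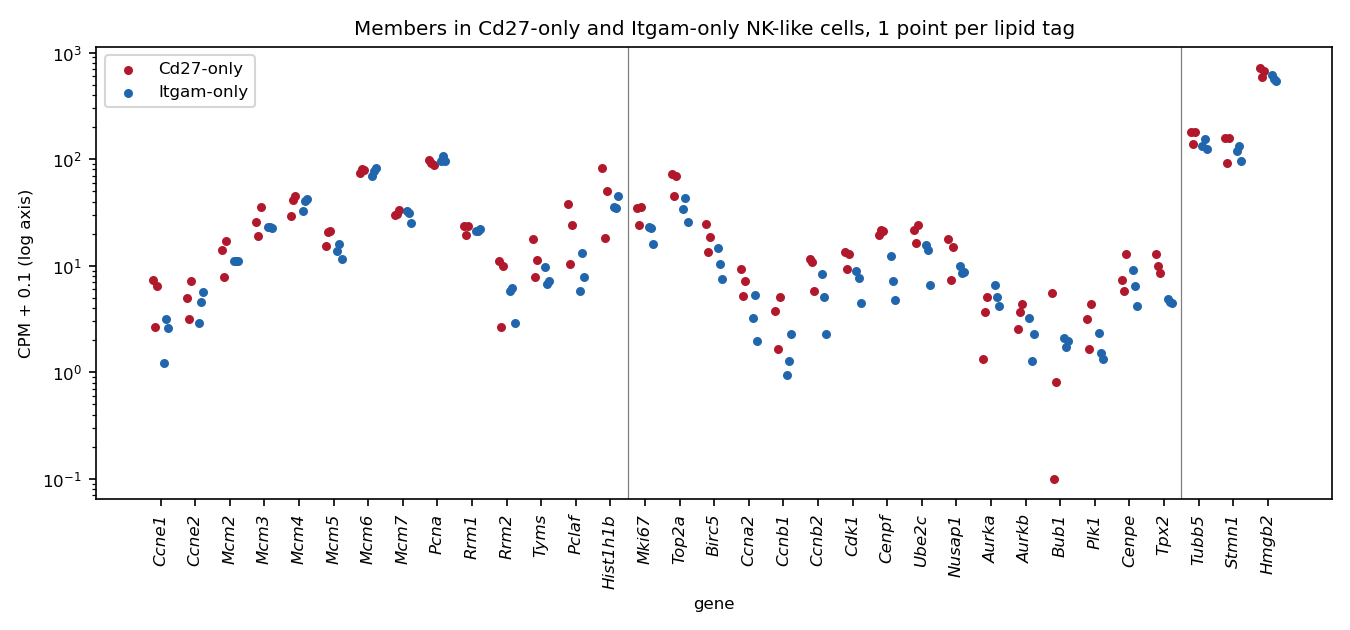
Level of each of the 33 genes, as CPM + 0.1 on a log axis, in Cd27-only (red) and Itgam-only (blue) NK-like cells, 1 point per lipid tag, with G1/S, G2/M and broadly expressed genes from left to right. The red and blue points do not overlap for 6 genes, Cenpf, Top2a, Mki67, Cdk1, Ube2c and Tpx2, and overlap for Pcna. Of all genes tested, 8.71% had all Cd27-only tags above all Itgam-only tags.

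By either set, 7.24% of Cd27-only and 6.66% of Itgam-only cells held cycle transcripts, with overlapping tags and an exact permutation p = 0.4. By the G2/M genes alone, 1.72, 0.627 and 1.53% of Cd27-only cells passed in tags 1, 2 and 3, against 0.491, 0.540 and 0.392% of Itgam-only cells. These tags did not overlap, at an exact permutation p = 0.1, the smallest possible, and the counts behind them were 11 of 870 and 12 of 2506 cells. The tag means, 1.29% of Cd27-only and 0.474% of Itgam-only cells, lay below the 1.57% of B cell-like cells. The B cell-like tags (1.69, 1.87 and 1.15%) overlapped the Cd27-only tags and lay above the Itgam-only tags. Among all cells of the classes, 9 Cd27-only and 9 Itgam-only cells had 10 or more UMIs of the larger of the 2 sums.

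Between cells with Cd27 and Itgam and Itgam-only cells, 9 genes fell and none rose, where 1.78% of all genes were called higher and 0.893% lower. Birc5 had 0, 1.14 and 0 CPM in cells with both, from 1 UMI in all, against 14.7, 10.3 and 7.46 CPM in Itgam-only cells. Top2a had 9.40, 12.5 and 8.27 CPM in cells with both, against 34.1, 43.2 and 25.8 CPM in Itgam-only cells (log2 fold change -1.74 ± 0.30, SE; edgeR adjusted p = 6.9e-05). Mki67 had 10.7, 3.42 and 11.6 CPM in cells with both and 22.8, 22.3 and 15.9 CPM in Itgam-only cells. Cenpf, Ube2c, Ccnb2, Hist1h1b, Stmn1 and Hmgb2 were also called lower. With classes taken from unthinned counts 3 genes rose and none fell, and without the deepest cells, or in sums of the thinned cells, none was called.

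NK-like cells with neither transcript held 298 of the 552 cells with cycle transcripts, 54.0%, and made up 46.3% of the NK-like cells. Their 16 G2/M genes summed to 384, 353 and 388 CPM in tags 1, 2 and 3, against 158, 144 and 97.3 CPM in Itgam-only cells. In Cd27-only cells these genes summed to 259, 178 and 249 CPM, also below the cells with neither. The G1/S genes summed to 621, 626 and 637 CPM in cells with neither. Their sums were 470, 355 and 450 CPM in Cd27-only cells and 358, 394 and 383 CPM in Itgam-only cells. Hist1h1b had 129, 136 and 138 CPM in cells with neither, against 35.2, 34.9 and 45.1 CPM in Itgam-only cells. Mki67 had 65.2, 54.2 and 70.3 CPM in them, against 22.8, 22.3 and 15.9 CPM in Itgam-only cells. The tags of the class with neither did not overlap those of the classes set against it in these values, which were not tested. The cells with cycle transcripts had a median of 5281 UMIs in the class with neither, against 3631 UMIs in the Itgam-only class, and the part of depth was not tested.

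The other cell cycle genes, 105 in 8 lists, were read from the same fits. In erythroid-like cells, 16 of 18 genes of origin licensing and firing, 14 of 14 of nucleotide supply and fork proteins, 13 of 13 of the kinetochore and checkpoint and 18 of 20 of the spindle, condensin and cytokinesis list rose against NK-like cells, where 34.5% of all genes were called higher. Cdc6, which loads the MCM helicase, averaged 54.8 ± 9.09 CPM in erythroid-like cells and 1.83 ± 0.257 CPM in NK-like cells (SD, n = 3 tags each), the largest log2 fold change of these lists (5.27 ± 0.26, SE). Tk1, Uhrf1, Dut and Mybl2 followed, at log2 fold changes from 4.76 to 4.14. Of the CDK inhibitor list 1 of 5 tested rose and 2 fell, close to the 34.5 and 38.8% of all genes. Cdkn1b, an inhibitor of cyclin-dependent kinases, averaged 20.5 ± 4.29 CPM in erythroid-like cells and 159.9 ± 11.4 CPM in NK-like cells (SD, n = 3 tags each). Rbl2, a pocket protein of resting cells, averaged 12.8 ± 4.66 CPM in erythroid-like cells and 146 ± 11.7 CPM in NK-like cells. The inhibitor gene Cdkn2d and the D-type cyclin genes Ccnd2 and Ccnd3 fell too, at log2 fold changes of -2.22, -1.64 and -3.04.

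Of 101 other genes tested, 65 rose and 9 fell in progenitor-like cells, against 29.5 and 30.6% of all genes. The genes named here and below are those with the largest fold changes among called genes with the same direction in all tags. Cdk6, a partner of the D-type cyclins, averaged 1078 ± 147 CPM in progenitor-like cells, against 51.2 ± 3.52 CPM in NK-like cells (SD, n = 3 tags each; log2 fold change 4.34 ± 0.13, SE). Ccnd1, Uhrf1, Mcm10 and Cdc6 also rose, and Racgap1, Rbl2, Ccnd3, Pttg1 and Cdkn2d fell. In ILC1-like cells 19 of the 101 rose and 5 fell, against 8.9 and 9.75% of all genes. Among them E2f8, E2f3, Tk1, Cks1b and E2f1 rose, by 1.13 to 1.26 on the log2 scale. Cdkn2d, Racgap1, Orc5, Ccnd3 and Cdkn1b fell. In conventional dendritic cell-like cells 36 of the 101 rose and 20 fell, against 29.2 and 30.5% of all genes. The share that rose was near that background and the share that fell was below it. Ccnd1 averaged 259.9 ± 5.87 CPM in these cells, against 1.46 ± 0.234 CPM in NK-like cells. Ccnd2 averaged 65.5 ± 32.3 CPM in them, against 426 ± 33.1 CPM in NK-like cells. Cdkn2b, Cdkn1a, Espl1 and Uhrf1 also rose there, and Cdc25b, Cdkn2d, Rbl2 and Cdt1 fell. In B cell-like cells 12 of the 101 rose and 15 fell, both shares below the 18.1 and 22.8% of all genes. Among them Pold1, Cdk2, E2f2, Uhrf1 and E2f1 rose and Cdkn1a, Racgap1, Ccnd2, Rbl2 and Prc1 fell.

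Between Cd27-only and Itgam-only NK-like cells, 8 of the 93 other genes tested rose and 2 fell, where 6.99% of all genes were called higher and 4.88% lower. The share that rose was near that background. Anln, Dtl, Cdc25a, Cks1b and Ncapd2 had the largest fold changes among those higher in all tags. Cks1b, a small partner of cyclin-dependent kinases, averaged 19.6 ± 6.42 CPM in Cd27-only cells and 7.87 ± 2.05 CPM in Itgam-only cells (SD, n = 3 tags each). Those that fell were Cdkn1b, with 142 ± 8.06 CPM in Cd27-only cells and 174 ± 8.62 CPM in Itgam-only cells, and Ccnd3, with 948 ± 70.0 CPM in Cd27-only cells and 1089 ± 75.4 CPM in Itgam-only cells. Between cells with both transcripts and Itgam-only cells Kif11, a spindle motor gene, was the single one of the 93 called, and it fell.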

How the data were processed

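Single-cell RNA counts of 1 library were used. The authors deposited UMI counts per gene and barcode, with counts of 3 lipid tags, made with Cell Ranger 7.0.0 per the file header. The submitters' processing notes name mm10, Cell Ranger and Seurat. Genes, their grouping and the gene lists were chosen with earlier results of these data known.

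Of 16384 barcodes, 642 were removed (under 500 or over 6000 genes, or over 10% mitochondrial UMIs). Tags were called at Otsu thresholds of 133, 187 and 130 UMIs. Of the remaining barcodes 3567 with several tags and 479 with none were left out. No doublet caller was run, and 1795 doublets of the same tag were expected among the 11696 cells (15.3%). Total gene UMIs per tag were 1.85e+07, 2.31e+07 and 2.25e+07.

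Clustering used scanpy 1.11.5 with the Leiden algorithm of leidenalg 0.10.2 (2000 variable genes, 30 components, 15 neighbours, resolution 1.0). The rule that named clusters from the marker lists was set after the clusters were seen, and 1190 cells stayed unnamed. The progenitor-like cluster scored higher on basophil or mast cell markers, and the ILC1-like cluster on NK markers, than on those of their names. Erythroid-like cells came from 4 clusters, and 1 of them counted Igkv12-44 among its leading genes.

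For each class the UMI counts of a tag's cells were added up, and edgeR 4.0.16 compared these sums (quasi-likelihood, TMM scaling, low-count filter, tag as a block, Benjamini-Hochberg at 0.05 over all genes), in 1 fit for the Cd27 and Itgam classes and 1 for the cell types. The block pairs classes because same-numbered sums come from cells with the same tag. Each SE of a log2 fold change was derived from that fold change and the F statistic of its test, which gives no SE itself. CPM values are not corrected for length, which a 3′ assay does not need, and they were compared between classes, not between genes. On simulated counts the fit recovered 96% of 2-fold and 100% of 4-fold changes between Cd27-only and Itgam-only cells (10252 genes). Between erythroid-like and NK-like cells (10005 genes) it recovered 84% and 100%. Of the genes called, 4.85% in the first and 7.07% in the second had not been changed. The 200 changed genes were drawn from those with more counts, and no tag effect was added. These rates therefore do not cover scarcer genes or variation between tags. Shares were compared over tags by an exact permutation test. Intervals cover counting error only. Named genes were 16 genes chosen for their roles, the 3 called genes with the largest fold change in each comparison, the 3 strongest and weakest by co-occurrence, and up to 5 other genes in each direction. Alternatives were DESeq2 1.42.0, other scalings, filters, gates, thinning depths and cluster resolutions, and leaving out each tag. Same-strand overlaps with other annotated genes, listed for Mcm7, Nusap1, Pclaf, Rrm1, Stmn1, Top2a and Tpx2, may make their counts less certain, which was not tested.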

Additional observations from a re-analysis of the deposited data

Results flagged for a closer look

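Cycle transcripts were also seen in barcodes left out of the comparisons, at shares above the 7.78% of NK-like cells. Of the 223 barcodes with more than 6000 genes, 93.7% held cycle transcripts after thinning to 2500 UMIs (95% exact binomial interval 89.7 to 96.5%), and 70.9% passed by the G2/M genes alone. These barcodes had a median of 61728 UMIs, and 88.8% held a UMI of Car1 or Klf1, genes of red cell precursors. Among those with a single tag, 148 of 154 held cycle transcripts.

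Of the 3242 barcodes with several tags and at least 2500 UMIs, 11.5% held cycle transcripts (10.5 to 12.7%), and 4.16% passed by the G2/M genes alone, at a median of 8320 UMIs. A UMI of Car1 or Klf1 was found in 13.3% of them. The part of depth and of joined cells in these shares was not tested. Groups of 3 tags were too small for a check of single outlying tags.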

How the results depend on the processing

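All 33 genes were called higher in erythroid-like cells under every alternative that tested them (29 of 29 in sums of thinned cells), and in progenitor-like cells 22 to 30 were with a tag left out. For Cd27-only against Itgam-only cells, 11 genes higher became 7 with DESeq2, 5 to 15 with a tag left out, 1 without cells with other markers, 19 with the unthinned gate, 3 with a gate of 2 UMIs and 6 in thinned sums. Without the replicate block that pairs the tags, it became 4, and the 9 lower in cells with both became 4, while no other comparison's count of calls moved by more than 1.5 times. Those 9 became 3 with DESeq2, 3 to 7 with a tag left out, 5 with all clusters scored NK, and 0 without the deepest cells, without cells with other markers, in thinned sums or with the unthinned gate, where 3 were higher.

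For ILC1-like cells, 13 higher became 3 to 23 with a tag left out, 23 in a pairwise fit, 2 (and 2 lower) without the deepest cells, 27 without NK-like cells with other markers and 6 in thinned sums. For B cell-like cells, 2 higher became 1 to 2 with a tag left out, 4 in a pairwise fit and 7 without NK-like cells with other markers, and 8 lower became 14 with no filter or in a pairwise fit, 4 to 8 with a tag left out, 4 without the deepest cells or in thinned sums, and 2 without NK-like cells with other markers. For conventional dendritic cell-like cells, 7 higher became 14 with RLE scaling or no filter, 6 to 12 with a tag left out, 12 in a pairwise fit, 23 without the deepest cells or without NK-like cells with other markers, 13 at resolution 1.5 and 11 in thinned sums, and 4 lower became 1 with DESeq2, 1 to 4 with a tag left out and 1 without NK-like cells with other markers. The causes were not tested.

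Differences in share (percentage points) changed sign for Cd27-only cells at 4000 UMIs (-1.54) and without the deepest cells (-0.34), and for cells with both at limits of 2 UMIs (0.79) and 5 UMIs (0.45) and unthinned (3.07). They did for ILC1-like cells at a limit of 2 UMIs (-1.88), at 4000 UMIs (-0.24) and without the deepest cells (-0.42), and for B cell-like cells by G2/M genes alone (0.24), with both sets required (0.36) and at 5 UMIs (0.38). They did for conventional dendritic cell-like cells by G1/S genes alone (-0.32), at 2 UMIs (-8.11), at 4000 UMIs (-4.88) and with a tag left out (-0.11 to 0.70), and for plasma cell-like cells unthinned (0.42) and at resolution 1.5 (1.41). With a tag left out the differences for erythroid-like and progenitor-like cells were 76.0 to 81.6 and 25.4 to 36.3.

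Single called genes changed sign in 20 cases and lost the call in 198, with 1542 kept. For Cd27-only cells these were Ccnb2 (-0.17), Cenpf (-1.76) and Ube2c (-0.81) with a gate of 2 UMIs, and Tubb5 (-0.038) without cells with other markers. For cells with both they were Hist1h1b (0.52), Mki67 (0.41), Top2a (0.43), Birc5 (0.25), Ccnb2 (0.0018), Stmn1 (0.049) and Hmgb2 (0.12) with the unthinned gate, and Mki67 (0.057) in thinned sums. For ILC1-like cells without the deepest cells they were Hist1h1b (-1.54), Top2a (-0.20), Birc5 (-0.33) and Ccna2 (-0.52). For B cell-like cells they were Mki67 (0.96), Cenpf (0.87) and Ube2c (0.14) without NK-like cells with other markers, and Mki67 (0.090) without the deepest cells. Alternatives of thinned sums and of both sets required were chosen after seeing the data. Depth limits genes such as Ccnb1, with 112 UMIs over all NK-like cells.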
